A study of Mus musculus with 12 samples.

Results

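The CTCF sites described here are those at 31 genes whose products work at the synapse. A site was counted for a gene when the summit of a CTCF peak fell in the gene body or within 20 kb of it, on GRCm38 (mm10) with the GENCODE M21 basic annotation. Joining touching peak regions of all 6 peak lists gave 237 sites at these genes, of 56247 in the whole series, and each of the 31 genes held at least 1. The genes were taken as 8 adhesion molecules, 6 postsynaptic scaffold or kinase genes, 5 glutamate receptor subunits, 7 genes of vesicles and release, and 5 genes of transmitter synthesis and transport. The question asked of them was where CTCF was found in brain as compared with heart and lung, and in wild-type as compared with mutant embryos.

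CTCF contacts DNA with an array of zinc fingers. The central fingers read a core motif, and at a subset of sites the last fingers read an upstream motif in addition. It halts cohesin at convergent sites and so sets the borders and anchors of chromatin loops, and at promoters it can bring a distal enhancer close to a start site. Many synaptic genes are very long and are expressed in neurons but hardly in heart or lung. Many CTCF sites are shared between tissues, while others differ between cell types, in part with DNA methylation.

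The samples were brain, heart and lung of E18.5 embryos on a C57BL/6 background (C57BL/6 N in the study's methods), either wild type or homozygous for R567W, a change of 1 residue in the last zinc finger that was made by CRISPR/Cas9 editing and is carried by all cells of the embryo. There was 1 CTCF ChIP library per organ and genotype, next to 6 input libraries not used here, so no difference described below has a replicate check and no p-value is given. Chromatin of HEK293T, a human embryonic kidney cell line, had been added to every sample as a spike-in, but scaling to it plays no part in peak calling. The pileups and ratios given below were not scaled to it either, so they do not give absolute changes in binding. With that scaling, the study reported reduced CTCF binding at numerous mutant sites in each organ. The sex of the embryos and how many were pooled are not given in the sources used here. Peak lists hold no expression values, so the organ labels could not be checked against marker genes. Organs are mixtures of cells, and fewer cells with CTCF at a site cannot be told apart from less CTCF per cell.

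Wild-type lists held 36034 (brain), 21059 (heart) and 44386 (lung) peak regions, and mutant lists 38390, 11515 and 32498. Signal at a site is given below as its summit pileup, the number of reads stacked on the summit, which was recovered from the authors' fold enrichment and p-value. Genotypes are compared as a log2 ratio, mutant pileup over wild-type pileup, each divided by the genome background of its list, which lay between 1.42 and 2.02 reads. This genome background is not a deposited value but was taken as the lowest local background recovered among the peaks of the list. Where a pair of values is given for an organ, the wild type comes first. Local background around the peaks was raised in wild-type lung, where its median was 2.38 times the genome background against 1.04 to 1.18 times in the other lists. This lowers the fold enrichment of wild-type lung peaks, and fold enrichment was therefore not compared between lists. The absence of a site from a list means that no peak was called there, not that CTCF was absent.

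The sequences of 12 sites are shown first because the results return to them. Each shows the core motif after the 30 bases that precede it, 5′ to 3′ on the strand of the motif, with the core motif in capitals and, where an upstream motif was called, its 9 bases also in capitals. Core motifs were called from a 19-column matrix, whose most frequent bases spell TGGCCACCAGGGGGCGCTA, on both strands within 100 bp of the summit. The upstream motif was TGCAGTNCC with at most 2 mismatches, on the strand of the core and within the 30 bases before it. The first pair are the only sites at these genes with a wild-type peak in every organ and no mutant peak in any, and both lie in introns of Nrxn3.
Nrxn3 site 3, chr12:88992279-88992327, plus strand: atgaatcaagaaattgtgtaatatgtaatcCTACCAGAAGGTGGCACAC
Nrxn3 site 5, chr12:89134569-89134617, minus strand: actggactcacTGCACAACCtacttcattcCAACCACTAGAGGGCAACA
The next 6 are sites listed in wild-type brain and in neither wild-type heart nor lung.
Nrxn3 site 20, chr12:89555191-89555239, plus strand: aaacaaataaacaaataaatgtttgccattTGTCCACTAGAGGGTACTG
Nrxn3 site 10, chr12:89331575-89331623, plus strand: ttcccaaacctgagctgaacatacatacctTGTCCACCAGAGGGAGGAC
Cntnap2 site 3, chr6:45062357-45062405, plus strand: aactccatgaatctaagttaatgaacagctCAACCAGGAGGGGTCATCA
Cntnap2 site 17, chr6:47284937-47284985, plus strand: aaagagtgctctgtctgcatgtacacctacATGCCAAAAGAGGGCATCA
Gria1 site 1, chr11:57018703-57018751, plus strand: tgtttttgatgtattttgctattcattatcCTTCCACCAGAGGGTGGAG
Dlg4 site 1, chr11:69999010-69999058, minus strand: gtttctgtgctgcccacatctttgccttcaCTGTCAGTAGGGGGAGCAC
The last 4 are among the 5 sites of highest pileup in wild-type brain.
Stx1a site 5, chr5:135015640-135015688, plus strand: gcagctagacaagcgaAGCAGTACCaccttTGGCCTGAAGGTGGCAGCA
Nrxn2 site 9, chr19:6489135-6489183, plus strand: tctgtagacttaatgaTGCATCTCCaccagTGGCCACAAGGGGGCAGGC
Slc17a7 site 2, chr7:45162345-45162393, plus strand: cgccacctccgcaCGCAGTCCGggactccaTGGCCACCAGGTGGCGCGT
Dlg4 site 9, chr11:70055728-70055776, plus strand: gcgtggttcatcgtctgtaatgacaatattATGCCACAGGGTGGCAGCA
Sites of a gene are numbered here along the chromosome. None of the 6 brain sites had an upstream motif by this rule, while 3 of the last 4 did.

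CTCF peaks were spread over nearly all of these genes in brain. Wild-type brain had 156 peaks at them, at all 31 genes, and mutant brain had 183, at 29 genes (74.6% and 75.8% of all protein-coding genes held a peak in the same window). Wild-type heart had 73 peaks at 24 genes and mutant heart 39 at 20 (63.5% and 48.3% of all genes). When the heart lists were shortened to the same length, wild type had 36 peaks at 19 genes and the mutant still 39 at 20. Wild-type lung had 151 peaks at 30 genes and mutant lung 106 at 27 (78.4% and 73.1% of all genes). The genes without a mutant brain peak were Snap25 and Pclo. Nrxn3 and Shank2 held the most sites, 23 each, followed by Cntnap2 with 19 and Grin2b with 14, whereas Syn1, Snap25 and Pclo held 1 each. For their length the windows were sparsely occupied, with 15.2 peaks per Mb in wild-type brain over 10.3 Mb, against 20.5 per Mb over the windows of all protein-coding genes. The corresponding densities were 7.11 against 12.1 peaks per Mb in wild-type heart and 14.7 against 25.6 in wild-type lung.

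**Figure D1:**
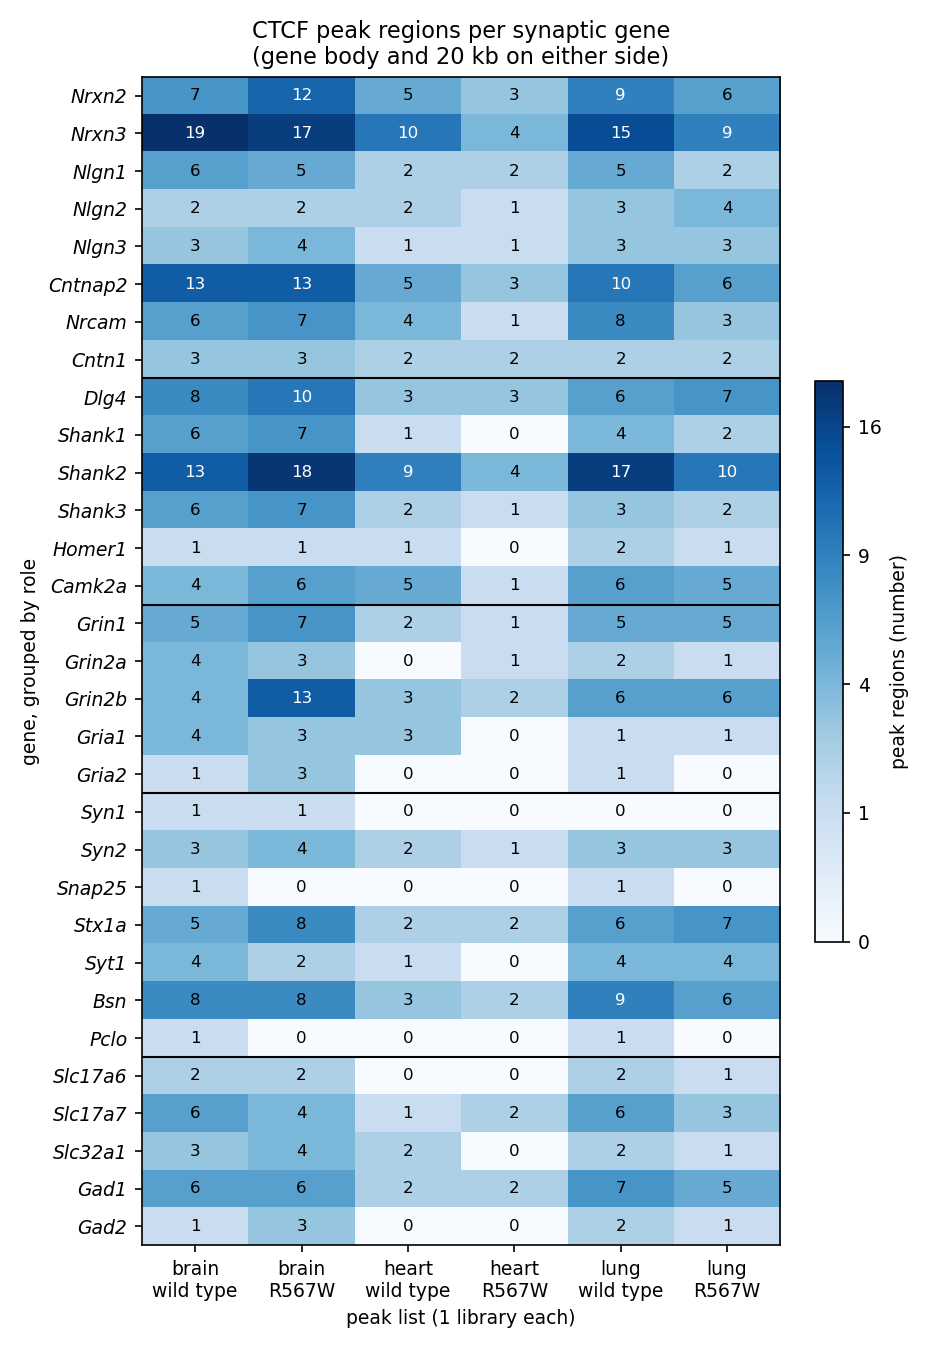
Number of CTCF peak regions at each of the 31 synaptic genes (rows, black lines between roles) in each of the 6 peak lists (columns, 1 library each), with the number printed in the cell and shaded by its square root. Grin2b goes from 4 to 13 between wild-type and mutant brain, and the heart columns hold the fewest peaks.

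Most sites lay inside the genes. Of the 237 sites, 139 were intronic, 7 exonic, 26 within 1 kb of a start of the gene, 35 in the upstream flank and 30 in the downstream flank. Within 1 kb of a start of any gene lay 25 of the 156 wild-type brain peaks (16.0%, against 18.4% of all peaks of that list). A core motif was called at 172 of the sites, on the strand of the gene in 91 of them and on the opposite strand in the others. In wild-type brain, 131 of 156 peaks (84.0%, 95% Wilson interval 77.4 to 88.9) had a core motif, against 83.0% of all peaks of that list, and windows 1100 bp away from the summits of that list had one in 4.56%. An upstream motif stood before 44 of these 131 core motifs (33.6%, 26.1 to 42.0), against 28.3% in the whole list, where a mirrored window behind the core gave 13.2%. In wild-type heart the share was 20 of 62 (32.3%, 22.0 to 44.6), against 26.7% in the whole list. In wild-type lung it was 47 of 127 (37.0%, 29.1 to 45.7), against 28.5%. With at most 1 mismatch the lung share was 15.0% (9.79 to 22.2), against 12.6%.

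Of the 156 wild-type brain peaks, 34 had no wild-type peak in heart or lung, among them sites in Nrxn3, Cntnap2 and Dlg4, a share of 21.8% (16.0 to 28.9), where the whole brain list had 13.4%. Lung went the other way, with 31 of 151 peaks found in lung alone (20.5%, 14.9 to 27.7) against 28.0% in the whole list, and in heart 1 of 73 peaks was found there alone (1.37%, against 1.63%). Since the heart list is the shortest, all wild-type lists were also shortened to the same number of peaks by q-value, and brain then had 17 of 89 peaks alone (19.1%, 12.3 to 28.5) against 9.80% in the shortened whole list. In these shortened lists the lung difference was gone, with 6 of 72 peaks in lung alone (8.33%) against 7.49%, and heart had 8 of 73 (11.0%) against 11.95%. The q-values of wild-type lung depend on its raised local background. The part of this in the shortened lists, here and below, was not tested. Gene by gene, wild-type brain had more peaks than lung at 11 of the 31 genes and fewer at 11, whereas 10.4% of all protein-coding genes had more and 41.5% fewer. Against heart, brain had more peaks at 28 genes and fewer at 1, Camk2a, against 50.6% and 2.44% of all genes. These genes were not compared with genes of like length, and none of these differences was tested because each list is 1 library.

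The 34 brain sites had low pileup. In wild-type brain it ran from 10 to 38 reads with a median of 18, whereas the 66 sites found in all wild-type organs ran from 19 to 152 with a median of 78.5. Over the series the medians of these classes were 16 and 70. Of the 34, 24 had a core motif (70.6%, against 64.6% of all 4845 such brain peaks), and an upstream motif stood before 3 of these 24 (12.5%, against 25.5%). Sites listed in every organ had a core motif in 61 of 66 (92.4%, against 89.7% over the series) and an upstream motif before 20 of these 61 (32.8%, against 26.9%). A mutant brain peak was called at 22 of the 34 (64.7%, 47.9 to 78.5, against 53.2% over the series), a mutant lung peak at 4 (11.8%, against 12.7%) and a mutant heart peak at none (against 0.248%). Nrxn3 site 10 had 29 reads in wild-type and 39 in mutant brain, Dlg4 site 1 had 23 and 29 as well as 16 in mutant lung, and Cntnap2 site 17 had 26 in wild-type brain and no mutant peak. These 34 sites were 14.3% of the 237 merged sites, against 8.37% over the series. Sites with a wild-type peak in heart alone numbered 1 (0.587% over the series) and in lung alone 31 (21.6%). Another 51 sites had a wild-type peak in brain and lung but not heart (21.5%, against 19.7%). At 18 of the 34 sites (7.59% of 237, against 3.46% of all sites of the series) a peak was found in both brain lists and in no other list. The 34 sites were spread over 16 genes, with 6 at Nrxn3, 5 at Cntnap2 and 3 each at Dlg4, Shank1 and Grin2a. Of them, 6 lay within 1 kb of a start of Nlgn1, Cntn1, Shank2, Shank3, Syn1 or Slc32a1 (17.6%), where 19.8% of all 4845 such brain peaks lay within 1 kb of a start.

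**Figure D2:**
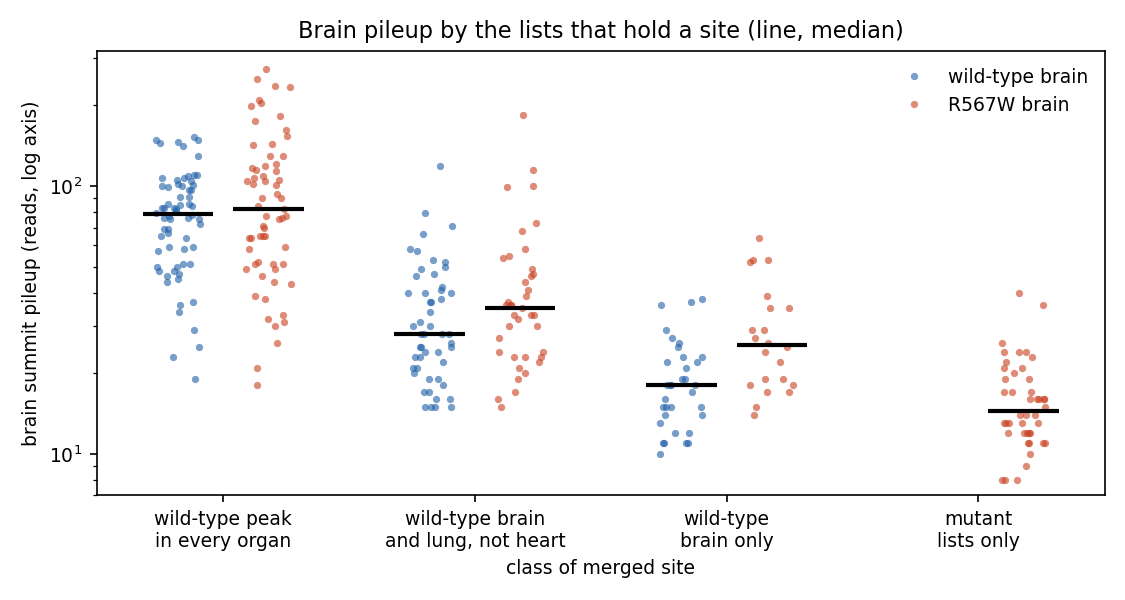
Brain summit pileup (reads, log axis) of the sites at synaptic genes, grouped by the lists that hold them. Each point is a site, blue for the wild-type and red for the mutant library, and the black line is the median, which is 78.5 for wild-type brain at sites found in every organ and 18 at sites found in wild-type brain only.

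Between genotypes the organs differed in how many of the wild-type peaks were still listed. In brain, 128 of 156 peaks were overlapped by a mutant peak (82.1%, 75.3 to 87.3), in heart 36 of 73 (49.3%, 38.2 to 60.5) and in lung 98 of 151 (64.9%, 57.0 to 72.1). These shares lay close to those of the whole lists, which were 81.5%, 50.6% and 67.0%. Mutant peaks with no wild-type peak numbered 56 of 183 in brain (30.6%, 24.4 to 37.6; whole list 24.5%). The numbers were 3 of 39 in heart (7.69%; whole list 7.12%) and 8 of 106 in lung (7.55%; whole list 9.11%). This order of the organs depended on list length. When the lists of an organ were shortened to the same length, the share was 24.0% for brain (shortened whole list 20.5%), 43.6% for heart (28.4%) and 15.1% for lung (19.2%). Retained shares were then 82.1% for brain (80.55%), 61.1% for heart (71.3%) and 77.6% for lung (81.05%). Counted by gene, mutant brain had more peaks than wild type at 15 of the 31 genes and fewer at 8 (30.9% and 16.1% of all protein-coding genes). Mutant lung had more at 3 and fewer at 20 (6.69% and 46.2%), and mutant heart more at 2 and fewer at 17 (2.52% and 40.0%).

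**Figure D3:**
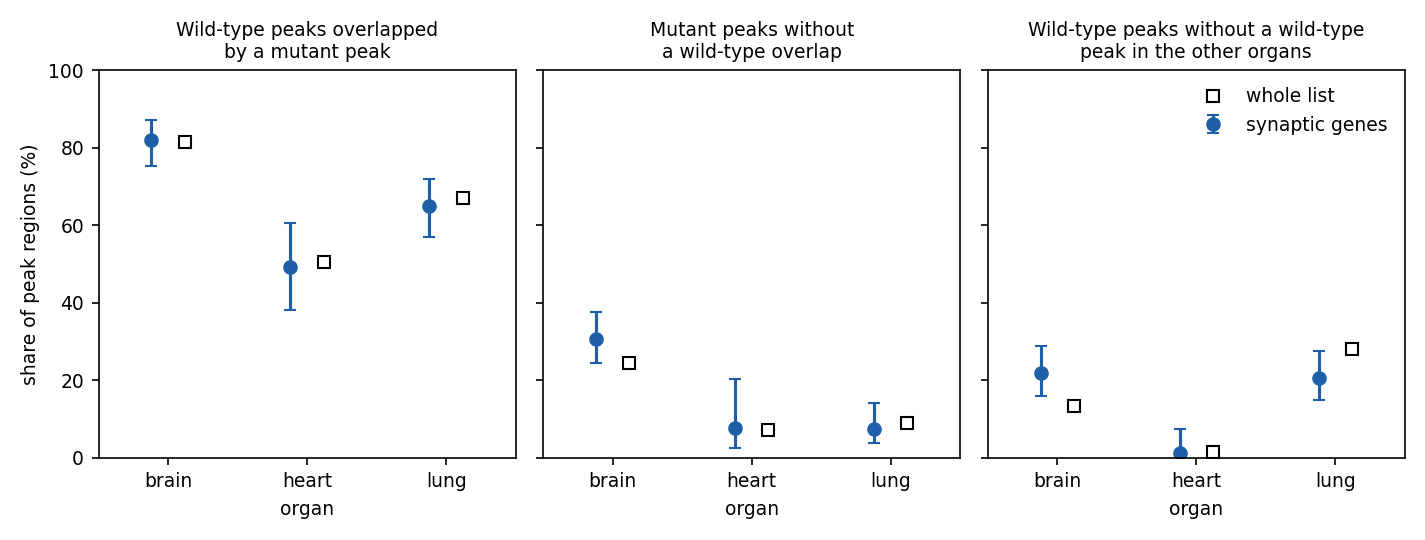
Share of peak regions (%) at synaptic genes (blue, with 95% Wilson intervals that cover counting error only) and in the whole list (open squares), by organ, for wild-type peaks overlapped by a mutant peak, mutant peaks without a wild-type overlap, and wild-type peaks without a wild-type peak in the other organs. The squares fall inside the blue intervals except in brain in the last panel, at 21.8% against 13.4%, and in lung, at 20.5% against 28.0%.

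Where a peak was listed in both genotypes, its height after division by the genome background was nearly level in brain and lower in the mutant lists of heart and lung. These heights were not scaled to the spike-in, so a level ratio does not mean that binding was unchanged. Without that division the brain median was 0.31 (0.22 over all shared peaks), the heart median −0.17 (−0.11) and the lung median −0.59 (−0.45). With the division, the median log2 ratio was 0.06 over 128 shared peaks in brain, −0.32 over 36 in heart and −0.49 over 98 in lung, next to −0.02, −0.25 and −0.35 over all shared peaks of the lists. Mutant pileup was at most 0.5 of wild type at 13 of 128 peaks in brain (whole list 11.2%), 4 of 36 in heart (7.08%) and 26 of 98 in lung (20.6%). It was at least 2 times wild type at 3 peaks in brain (4.16%) and at none in heart (0.188%) or lung (1.14%). The brain split turned without the division, with 5 of 128 peaks at most 0.5 of wild type (whole list 6.98%) and 10 at least 2 times wild type (9.97%), while heart had 3 and 0 (4.67% and 0.572%) and lung 29 and 0 (24.4% and 0.938%). Shared peaks with an upstream motif had a lower median ratio than those with a core motif alone in each organ, at −0.25 against 0.20 for brain, −0.70 against −0.15 for heart, where only 8 peaks had one, and −0.89 against −0.32 for lung. Over all shared peaks the same medians were −0.27 against 0.03, −0.33 against −0.23 and −0.64 against −0.29. Whether a wild-type peak was still listed differed little with the motif in brain (84.1% of 44 with an upstream motif, 85.1% of 87 with a core motif alone) and in lung (68.1% of 47 and 68.8% of 80), and in heart the shares were 40.0% of 20 and 59.5% of 42. Over the whole lists the shares were lower with an upstream motif in each organ, at 78.8% against 85.7% for brain, 46.7% against 56.8% for heart and 65.0% against 74.9% for lung.

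Adhesion molecules held 85 of the sites. Neurexins sit on the presynaptic side and bind neuroligins across the cleft, and Cntnap2, Nrcam and Cntn1 encode further cell adhesion proteins of axons and nodes. Peaks at these 8 genes numbered 59, 31 and 55 in wild-type brain, heart and lung, and 63, 17 and 35 in the mutant lists. In brain 46 of the 59 wild-type peaks were still listed (78.0%; whole list 81.5%), in heart 16 of 31 (51.6%; 50.6%) and in lung 33 of 55 (whole list 67.0%).

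Nrxn3 spans 1612 kb of chromosome 12 and held 23 sites, 10 found in all wild-type organs and 6 in wild-type brain alone. At site 3 the wild-type pileup in brain, heart and lung was 59, 27 and 93 reads, and at site 5 it was 36, 18 and 40, with no peak in any mutant list at either. Across the series, 616 sites shared this pattern, 1.1% of all merged sites. Site 17 of the same gene was listed throughout, with 104 wild-type and 154 mutant reads for brain, 33 and 35 for heart, and 142 and 151 for lung. Sites 8 and 9, both with an upstream motif, were lower in the mutant. Site 8 had 79 and 38 reads in brain and 98 and 22 in lung, log2 ratios of −1.30 and −2.05. Nrxn3 also had the strongest site found in wild-type brain alone, site 7, with 38 reads and no core motif, and site 20, with 37 reads in wild-type brain, 52 in mutant brain and 21 in mutant lung.

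Nrxn2 had 7 peaks in wild-type brain and 12 in mutant brain, while its lung lists had 9 and 6. Its strongest site, site 9, had 149 reads (wild type) and 234 (mutant) in brain, then 56 and 36 in heart and 233 and 196 in lung, so that its log2 ratio was 0.40 in brain and −0.15 in lung. At the neighbouring site 10, which also had an upstream motif, heart pileup was 40 in wild type and 12 in the mutant, the lowest ratio among the heart sites at −1.88. Site 7, in an intron without a core motif, had 36 reads in mutant brain and was in no other list.

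Cntnap2, whose gene body covers 2245 kb, had 13 peaks in each brain list, 9 of the wild-type peaks being shared. Site 3, in an intron 3047 bp from the 5′ end of the gene, was listed in brain only, with 36 and 64 reads in wild type and mutant. Site 15 had 58 reads in wild-type brain and 60 in wild-type lung and was in no mutant list. Among the neuroligins, the promoter of Nlgn1 is described below. The sites of highest brain pileup at Nlgn2 and Nlgn3 lay in their downstream flanks. Brain pileups there were 65 (wild type) and 101 (mutant) at Nlgn2 and 69 and 90 at Nlgn3. Nrcam kept 4 of its 6 brain peaks, 1 of 4 in heart and 3 of 8 in lung, and Cntn1 kept all of its peaks in each organ.

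Scaffold and kinase genes of the postsynaptic density held 60 sites. Dlg4 encodes PSD-95, Shank proteins and Homer1 link it to deeper layers of the density, and Camk2a is a subunit of the kinase CaMKII. Wild-type brain had 38 peaks at these 6 genes, of which 36 were still listed in the mutant (94.7%, 82.7 to 98.5; whole list 81.5%), while heart kept 9 of 21 (whole list 50.6%) and lung 25 of 38 (67.0%). This brain share was the highest of the 5 roles, and its interval overlapped those of the other 4. Shank2 kept all 13 brain peaks and had 5 more in mutant brain, whereas heart had 9 peaks in wild type and 4 in the mutant. Site 15 of Shank2, with an upstream motif, had 107 and 51 reads in brain, 167 and 47 in lung, and 40 in wild-type heart with no mutant peak.

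Among the sites of highest brain pileup, several of this group were listed nearly everywhere. Camk2a site 7, in an intron, had 146 wild-type and 251 mutant reads for brain, 47 and 54 for heart, and 218 and 264 for lung, so the mutant was higher in each organ. Its site 8, without a core motif, was far lower in the mutant, at 45 and 18 reads in brain, 88 and 15 in lung, and 38 in wild-type heart with no mutant peak. Dlg4 site 9 had 145 reads (wild type) and 104 (mutant) in brain, then 44 and 32 in heart and 202 and 182 in lung. Shank1 site 5 had 141 and 199 reads in brain, 185 and 172 in lung, and 51 in wild-type heart with no mutant peak. Shank3 site 4 carried a perfect match to the upstream motif and had 100 wild-type and 130 mutant reads for brain, 38 and 18 for heart, and 159 and 135 for lung. Homer1 had a single brain site, at its promoter.

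Glutamate receptor genes held 35 sites. Grin1 encodes the subunit that all NMDA receptors need, Grin2a and Grin2b the subunits that set their kinetics, and Gria1 and Gria2 subunits of AMPA receptors. Here wild-type brain had 18 peaks and mutant brain 29, while heart had 8 and 4 and lung 15 and 13. Of the 29 mutant brain peaks, 15 had no wild-type brain peak (whole list 24.5%), and 9 of these were at Grin2b, which had 4 peaks in wild-type and 13 in mutant brain, 3 and 2 in heart and 6 in each lung list. These 9 peaks had 11 to 26 reads, and 7 of them were in mutant brain and no other list. Site 5 had 24 reads and site 13 had 21 in mutant brain alone, and site 12, with 26 reads in mutant brain, was also listed in wild-type heart with 12 and in both lung lists with 59 and 62. The strongest site, site 4, had 97 reads (wild type) and 117 (mutant) in brain, then 39 and 29 in heart and 168 and 144 in lung. Site 2, with an upstream motif, had 64 and 26 reads in brain and 154 and 49 in lung, a log2 ratio of −1.55 in both. Without Grin2b the share of mutant brain peaks that had no wild-type peak was 27.6%.

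**Figure D4:**
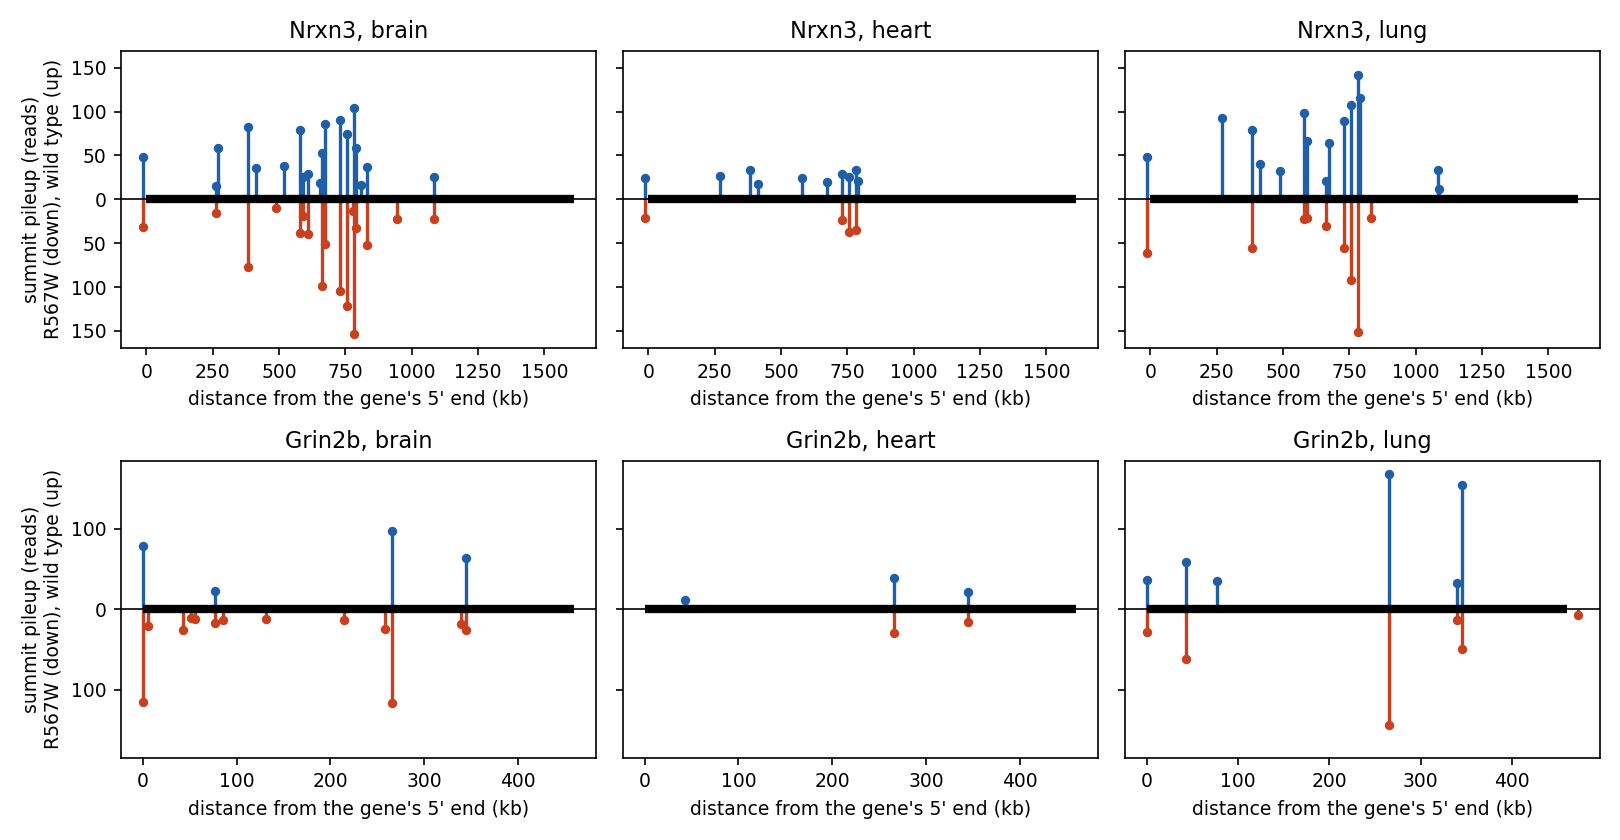
Summit pileup (reads) of each site along Nrxn3 (top) and Grin2b (bottom) in brain, heart and lung, with wild type drawn upwards in blue and mutant downwards in red, at its distance from the 5′ end of the gene (kb); the thick bar is the gene body. Mutant brain has 9 low peaks at Grin2b with no wild-type brain partner, and Nrxn3 has wild-type peaks in every organ at sites 3 and 5 with no mutant partner.

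Gria2 had 1 peak in wild-type and 3 in mutant brain, and its site 2, in an intron, had 40 reads in mutant brain, the highest pileup among the 48 sites found in mutant lists only. Gria1 had 4 and 3 peaks in brain. Its site 1, in an intron, was listed in wild-type brain alone with 27 reads, and its strongest site, site 5, had 83 and 65 reads in brain and 111 and 35 in lung. Grin1 kept all 5 of its brain peaks, and site 3 had 84 and 182 reads in brain against 184 and 182 in lung.

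Genes of vesicles and release held 34 sites. Synapsins tether vesicles, Stx1a and Snap25 are SNARE proteins of fusion, Syt1 is the calcium sensor of fast release, and Bsn and Pclo are large proteins of the active zone. Brain had 23 peaks in each genotype, heart 8 and 5, and lung 24 and 20. A mutant peak overlapped 17 of the 23 wild-type brain peaks (73.9%; whole list 81.5%). Snap25 and Pclo had a single intronic site each. At Snap25 it had an upstream motif and 24 reads in wild-type brain and 71 in wild-type lung, and at Pclo it had 46 and 60 reads. Neither had a mutant peak in any organ. Stx1a site 5 was the strongest site of all in wild-type brain, with 152 wild-type and 144 mutant reads for brain, 55 and 45 for heart, and 238 and 190 for lung. Bsn site 12 had 86 reads (wild type) and 46 (mutant) in brain, then 29 and 17 in heart and 129 and 61 in lung, lower in the mutant throughout. Syt1 kept 2 of 4 brain peaks and all 4 of its lung peaks, and Syn1 had a single site, at its promoter, listed in brain only with 15 and 17 reads. Syn2 kept its 3 brain peaks.

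Genes of transmitter synthesis and transport held 23 sites. Slc17a6 and Slc17a7 load vesicles with glutamate, Slc32a1 loads them with GABA, and Gad1 and Gad2 make GABA. Brain had 18 and 19 peaks, with 15 of the 18 shared (83.3%; whole list 81.5%), heart 5 and 4, and lung 19 and 11. Slc17a7 site 2, upstream of the start, had 149 wild-type and 273 mutant reads for brain, 45 and 51 for heart, and 241 and 236 for lung. In contrast Slc17a6 site 1, also upstream, had 71 and 23 reads in brain and 87 and 17 in lung, the lowest log2 ratio of all brain sites at −1.87 and −2.26 in lung. Slc32a1 site 4, in the downstream flank, had 109 and 64 reads in brain, 112 and 27 in lung and 29 in wild-type heart only. Gad2 had 1 site in wild-type brain, with 25 reads against 41 in the mutant, while the lung values were 40 and 24. Mutant pileup at this site was thus above wild type in brain and below it in lung.

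Start sites of these genes had higher peaks in mutant than in wild-type brain, in pileups not scaled to the spike-in. A peak lay within 1 kb of a start of 11 genes in wild-type and 15 in mutant brain (24.0% and 34.0% of all protein-coding genes). The numbers were 5 and 3 in heart (14.6% and 10.2%), and 10 and 8 in lung (33.1% and 27.4%). With the lists of an organ shortened to the same length, the order turned in heart, at 2 and 3, and in lung, at 6 and 8. Brain still had 11 and 15. The 11 were Nrxn2, Nlgn1, Cntn1, Shank2, Shank3, Homer1, Grin2a, Grin2b, Syn1, Slc32a1 and Gad1. All were listed in mutant brain as well, together with Cntnap2, Shank1, Grin1 and Stx1a, whose mutant brain pileups were 16 at most, 13, 13 and 17 reads. At Gad1 the pileup was 99 in wild-type and 209 in mutant brain, 33 in both heart lists, and 97 and 91 in lung. At Nrxn2, where the start of Gm14965 also lies within 1 kb, it was 130 and 236 in brain, 37 in wild-type heart only, and 182 and 129 in lung. The promoter of Nlgn1 had 81 reads (wild type) and 162 (mutant) in brain, then 25 and 23 in heart and 74 and 48 in lung. Its other start, near that of A830092H15Rik, had 14 and 53 reads in brain and no peak elsewhere, the highest log2 ratio of all brain sites at 1.67.

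Other starts showed the same order in brain. Grin2a had 119 and 184 reads in brain, a mutant heart peak of 20, and 91 and 59 in lung, and Grin2b, whose start lies within 1 kb of that of Gm26653, had 79 and 115 in brain and 36 and 28 in lung. Slc32a1, with starts of Gm14204 and Gm14205 within 1 kb, had 25 and 53 reads in brain alone, and Cntn1 had 14 and 35. Homer1 was nearly level with 46 and 51 reads in brain and had 65 and 32 in lung. In total 10 of the 12 shared start-site peaks in brain had a log2 ratio above 0, and their median was 0.54. The exceptions, Homer1 at −0.10 and Syn1 at −0.07, were higher in the mutant before division by the genome background, as were all 12. In lung 1 of 7 such peaks had a ratio above 0 and none was higher in the mutant before that division, and in heart neither of 2 had a ratio above 0. The brain pattern was not particular to these genes, since over all shared brain peaks within 1 kb of any start 4422 of 5984 had a ratio above 0 with a median of 0.42, against −0.14 elsewhere. Over lung 2754 of 6260 peaks near a start had a ratio above 0, and the medians were −0.07 near a start and −0.43 elsewhere. The 7 lung peaks at these genes had a median of −0.52 (−0.92 to 0.01). Over heart 824 of 2356 had a ratio above 0, with medians of −0.15 and −0.28. Counts before division by the genome background were not made over all start-site peaks.

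**Figure D5:**
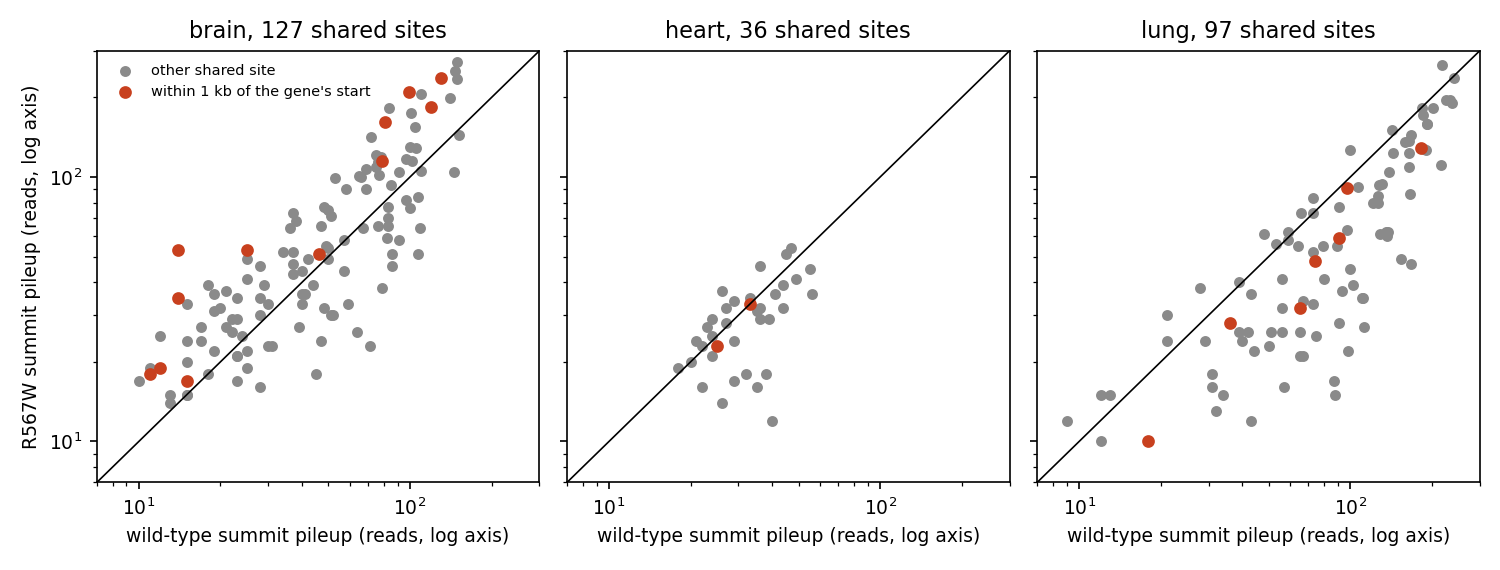
Summit pileup in the mutant against the wild-type library (reads, log axes) for each site at a synaptic gene that was listed in both, by organ (2 brain regions that fall in 1 site are drawn once, likewise in lung), with the line of equal pileup. Sites within 1 kb of the gene's own start (red) lie above the line in brain for all 12 and below it in lung for all 7. The pileups are not scaled to the spike-in.

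Sites listed only in mutant embryos numbered 48, in 24 of the genes (20.3% of 237 sites, against 13.1% of all sites of the series). Of these, 44 were in mutant brain alone and 4 in mutant lung, and 21 had a core motif. Over mutant brain peaks without a wild-type brain peak, a core motif was called at 29 of 56 (51.8%), against 57.9% in the whole list. The pileup of the 44 sites in mutant brain ran from 8 to 40 reads with a median of 14.5, against 25.5 at the 22 sites of the class above that had a mutant brain peak. After Gria2 site 2 and Nrxn2 site 7, the highest were Shank2 site 17 with 26 reads, then Bsn site 3, Gad2 site 1 and Grin2b site 5 with 24 each, Shank1 site 8 with 23 and Nrxn3 site 21 with 22. Within brain, the 56 mutant peaks without a wild-type partner had a median of 16 reads in the mutant library. The 28 wild-type peaks without a mutant partner had a median of 20 reads in the wild-type library, compared with 47 in that library at sites listed in both. Low peaks lie near the calling threshold of a list, and the part of this in their presence or absence was not tested. Among the 66 sites listed in all wild-type organs (34.8% of all sites of the series), mutant brain lacked a peak at 3, mutant heart at 30 and mutant lung at 7. Over the 19565 such sites of the series the shares were 6.43%, 46.3% and 6.63%.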

How the data were processed

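CTCF ChIP-seq peak lists of 6 libraries were used, and per the study's methods the authors used Trim Galore for trimming, Bowtie2 for alignment to joined mouse (mm10) and human sequence, and MACS2 for calling peaks in each library. Which input was the control of each list is not given in the sources used here. The deposited score was not used. The deposited fold enrichment, a ratio of pileup to local background, and the deposited −log10 p and −log10 q values came from the authors' peak caller. Summit pileup was recovered from the first pair as the whole number that solves both (relative tolerance 1e-04, 100% of lines), and the steps were tested on simulated data. No read totals are given, and intervals cover counting error only.

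Lines sharing a region were counted once. Overlap meant 1 bp. Sequences were read from GRCm38. The core matrix was learned from the 2000 strongest wild-type brain peaks, of which 1906 gave a site, and called at p of 1e-04. Named sites were, by rule, the site of highest wild-type brain pileup of each gene, those found in wild-type brain only, those lost in every mutant organ, those in mutant lists only and those within 1 kb of a start, up to 10 each. Other sites were chosen after their values were seen. The genes and lists were chosen with earlier results of these data known. Sequences within untranslated regions or on chromosome 18 are not shown. Alternatives were gene windows of 0 or 50 kb, −log10 q of at least 5, summits within 150 bp, lists of equal length, autosomes only, members left out, raw pileup, a promoter of 2 kb and stricter motifs. Scripts ran in Python 3.11.15 with pandas 2.3.3 and numpy 2.4.6, Poisson and median terms from scipy 1.17.1, intervals from statsmodels 0.14.6, and figures from matplotlib 3.10.9.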

Additional observations from a re-analysis of the deposited data

Results flagged for a closer look

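At synaptic genes, as over the whole lists, the number of peaks at full list length differed between genotypes in opposite directions in brain and in the other organs. With 1 library per organ and genotype this was not tested. Mutant brain had more peaks than wild-type brain, a log2 ratio of 0.23, whereas heart had fewer at −0.90 and lung fewer at −0.51. With the lists of an organ shortened to the same length, mutant heart no longer had fewer, with 36 wild-type and 39 mutant peaks. Lung then had 116 and 106, and brain 156 and 167. The whole mutant lists for brain, heart and lung held 38390, 11515 and 32498 peaks, and the wild-type lists 36034, 21059 and 44386. At shared peaks the median log2 pileup ratio was 0.063 for brain, with −0.32 for heart and −0.49 for lung, and over all shared peaks −0.02, −0.25 and −0.35. The brain median is close to 0, with an interval over peaks of −0.10 to 0.23, and was −0.021 with windows of 50 kb. From raw pileup, without division by the genome background, it was 0.31 (0.15 to 0.48). Neither value was scaled to the spike-in. The brain lists have different genome backgrounds (1.70 reads in wild type and 2.02 in the mutant). The part of this in the difference was not tested.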

How the results depend on the processing

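No paired analysis was possible because each organ and genotype has 1 library and the labels carry no replicate numbers, and for the same reason no library could be left out. Of 252 alternative values over 36 results, 229 kept their sign and stayed within the interval of the main value or within 1.5 times a count. The median log2 pileup ratio in brain changed sign with windows of 50 kb, to −0.021, and was 0.31 from raw pileup. With gene bodies alone, peaks numbered 25 in mutant heart and 99 and 62 in wild-type and mutant lung. Lists of equal length gave 36 wild-type heart peaks at these genes, against 39 in mutant heart. Retained shares were then 61.1% in heart and 77.6% in lung (71.3% and 81.05% over the shortened whole lists). Mutant-only shares were 24.0%, 43.6% and 15.1% for brain, heart and lung (20.5%, 28.4% and 19.2%). Shares found in 1 organ alone were 11.0% in heart and 8.33% in lung (11.95% and 7.49%). Equal length also gave 2 genes in heart and 6 in lung with a wild-type promoter peak, against 3 and 8 in the mutant lists. A promoter of 2 kb gave 8 genes in wild-type and 5 in mutant heart. Shares of all protein-coding genes were not computed under these promoter settings. With the stricter core motif the shares for brain, heart and lung were 62.2%, 69.9% and 62.3% (61.1%, 67.4% and 56.7% in the whole lists). With at most 1 mismatch the upstream motif shares were 13.7%, 8.06% and 15.0% (12.2%, 9.27% and 12.6%). The lung interval, 9.79 to 22.2, then held the share of the whole list. The share of wild-type brain peaks found in brain alone lay within its interval under each alternative run. Without Grin2b, an alternative chosen after seeing the data, the peak and gene counts stayed within 1.5 times, and the shares and median ratios within their intervals. The motif shares were not recomputed for it. Peak lists omit sites under the threshold, so low sites limit what presence and absence can show.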

Other observations

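A second set of 44 synaptic genes, also chosen with earlier results of these data known, was described in the same way. Wild-type brain had 174 peaks at 42 of these genes and mutant brain 178 at 42 (95.5% of the 44, where all protein-coding genes had 74.6% and 75.8%). In brain 36 of the 174 peaks had no wild-type peak in heart or lung (20.7%, 15.3 to 27.3; whole list 13.4%), and in lung 42 of 183 were found there alone (23.0%, 17.5 to 29.6; whole list 28.0%). Mutant peaks overlapped 138 of 174 wild-type peaks in brain (79.3%; whole list 81.5%), 50 of 90 in heart (55.6%; 50.6%) and 120 of 183 in lung (65.6%; 67.0%). Mutant peaks without a wild-type peak made up 23.0% of 178 in brain (whole list 24.5%). Of these genes, 18 had a promoter peak in wild-type and 24 in mutant brain, against 7 and 5 in heart and 12 in each lung list. As shares of the 44 genes the brain counts were 40.9% and 54.5%, heart 15.9% and 11.4% and lung 27.3% in both, where the shares of all protein-coding genes were 24.0% and 34.0% for brain, 14.6% and 10.2% for heart, and 33.1% and 27.4% for lung.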
